A study of Mus musculus with 12 samples.

Results

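Female and male germ cells of mouse embryos at E12.5 (E, embryonic day) were compared, with the autosomal genes of signalling, meiosis and metabolism as the subject. They make up 4 of the 12 libraries of the series, 2 female and 2 male, and were chosen by their labels. The assay was 3′-end RNA sequencing, in which reads come from the ends of amplified cDNA. The unit is RPM, the reads of a gene scaled to a fixed total of reads in genes, and differences are female minus male on the log2(RPM + 1) scale. The E12.5 cells of both sexes came from a 1:1 mix of the ICR and C57BL/6 strains, carried a Stella-EGFP reporter, and were sorted as EGFP-positive cells of which 1 ng of RNA was amplified. Levels in E9.5 primordial germ cells (PGCs), from the same mix, reporter and input, are set beside them without a test. The remaining groups were PGC-like cells (PGCLCs) derived from C57BL/6 embryonic stem cells and expanded for 3, 5 or 7 days, sorted by a Blimp1-mVenus reporter, with 10 ng of RNA. They entered the estimate of the spread between replicates. No label tells whether the 2 libraries of a group are from separate litters or sorts, so the p-values measure the spread between these samples, which may be technical.

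Germ cells that reach the fetal gonad take a female or a male path. In an ovary they enter meiosis and become oocytes, while in a testis they stop dividing and become prospermatogonia. Work in mouse ties the female path to BMP signals and retinoic acid, which act on Zglp1 and Stra8 and then on genes of the meiotic chromosome axis. The male path is tied to FGF and Nodal signals and to Nanos2.

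Stra8, whose product is needed for meiotic entry, and Zglp1, which encodes a GATA-like zinc finger factor of the oogenic programme, were both higher in females. The 250 bases before their RefSeq start sites (GRCm38.p6, the build of the files) are printed because both genes stand at the head of the female path. Stra8 lies on the plus strand, and its window at chr6:34920698-34920947 is inside the annotated span of the gene, which begins at base 34920163 of chromosome 6. Zglp1 lies on the minus strand, with its window at chr9:21067094-21067343. Capitals mark AGGTCA, the half-site of retinoic acid receptors and other nuclear receptors, or its reverse complement TGACCT. In the Stra8 window AGGTCA starts 194 and 38 bases before the start site, and in the Zglp1 window TGACCT starts 121 bases before it.
Stra8: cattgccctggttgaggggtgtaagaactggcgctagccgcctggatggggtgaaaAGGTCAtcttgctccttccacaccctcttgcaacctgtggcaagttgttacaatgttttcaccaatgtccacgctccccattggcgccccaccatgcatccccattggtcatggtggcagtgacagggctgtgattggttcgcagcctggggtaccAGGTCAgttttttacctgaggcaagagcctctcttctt
Zglp1: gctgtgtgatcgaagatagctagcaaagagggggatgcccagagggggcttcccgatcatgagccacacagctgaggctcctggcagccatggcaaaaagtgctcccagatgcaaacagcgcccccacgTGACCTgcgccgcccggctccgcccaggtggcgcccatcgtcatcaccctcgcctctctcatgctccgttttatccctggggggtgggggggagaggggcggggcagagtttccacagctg
On either strand, AGGTCA was present in 14% of the 32851 windows of this length in the RefSeq table. Of the 13 meiosis and retinoic acid genes called higher in females, 11 had a window. AGGTCA was present for 4 of these 11 genes, Stra8, Zglp1, Sycp3 and Rxra. A gene counted if any of its windows matched, while the percentages are of windows. Other motifs were searched on both strands of the same windows. GGCGCC, a GC-rich SMAD motif, was found for 4 of the 11 genes and in 9.59% of all windows. Of the 11 genes, Syce2 alone matched CNCCTCAG, a STRA8 motif (6.42% of all windows), and AATNCACA, a FOXH1 motif (3.18%). TCACGTGA, the motif of E2F6 and MGA, was found for 0 of the 11 genes and in 0.785% of all windows. No motif contains another, and each match describes the letters of a window only.

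Depth and composition were alike in the 4 libraries. Estimated depth was 3207582 to 3986680 reads in genes, and 9443 to 9583 genes reached 5 RPM. The floor of 3 reads that a 0 allows came to 0.754 to 0.938 RPM, counting error only. All 11 germ cell identity genes were tested, and 8 were not called, against an autosomal background of 11.4% called. Of the other 3, Sycp3 and Tfap2c were called higher and Dppa3 lower in females. Dppa3, which encodes Stella and whose reporter was used for the sort, had 2864 and 2967 RPM in females, against 4770 and 4846 RPM in males (-0.72 ± 0.10, adjusted p = 0.000563), a call that held with any 1 library left out. Dazl, an RNA-binding protein of germ cells, stood at 1245 and 1191 RPM in females, against 1163 and 1185 RPM in males (log2 difference 0.05 ± 0.29 SE, limma adjusted p = 0.935). Markers of other gonadal cells were low. Of the 8 markers of gonadal somatic cells of both sexes none was tested, and their summed level was 3.33 and 3.52 RPM in females, against 10.0 and 6.62 RPM in males. The 10 Sertoli markers summed to 27.3 and 23.9 RPM in females, against 25.3 and 29.5 RPM in males. Amh was at 0 in all 4 libraries, and Cst9 was at 0 in both female libraries, against 4.06 and 6.92 RPM in males. Sox9 was at 0 in both female libraries, against 1.25 and 1.81 RPM in males, and was called (adjusted p = 0.0354), though not without female library 1 or 2 (0.129 and 0.133) or male library 1 or 2 (0.0869 and 0.184). The 8 pregranulosa markers summed to 13.0 and 14.5 RPM in females, against 8.34 and 2.41 RPM in males, with Foxl2 at 0 and 0.251 RPM in females and at 0.313 and 0 RPM in males. The 7 endothelial markers summed to between 3.91 and 4.85 RPM, with Cdh5 and Kdr at 0. The 14 blood and macrophage markers summed to 20.3 and 16.6 RPM in females, against 15.3 and 21.2 RPM in males. The 10 interstitial and mesenchymal markers summed to 3.71 and 6.10 RPM in females, against 6.45 and 6.72 RPM in males. In the E9.5 libraries the blood list stood higher, at 4606 and 4077 RPM, as did the interstitial list, at 157 and 161 RPM. The part of other cells in the E9.5 levels given below was not tested. The 7 steroidogenic markers summed to 69.0 and 72.4 RPM in females, against 52.5 and 60.8 RPM in males, and the 6 mesonephric markers to 31.5 and 29.7 RPM, against 6.56 and 12.3 RPM. Irx3, Insl3, Krt18 and Aard, single members of the pregranulosa, steroidogenic, mesonephric and Sertoli lists, were called higher in females. These genes were also read in the sorted PGCLCs, given here as means at days 3, 5 and 7. There Irx3 had 8.24, 6.77 and 5.73 RPM, and Insl3 40.4, 31.0 and 25.9 RPM. Krt18 had 12.1, 14.4 and 8.54 RPM there, and Aard 65.1, 63.2 and 82.2 RPM. Irx3 had 8.49 and 5.28 RPM in females, against 0.938 and 0.903 RPM in males (adjusted p = 0.00447; 0.0593 without female 1). Insl3 had 40.3 and 37.7 RPM in females, against 14.4 and 21.4 RPM in males (0.00739; 0.0621 without female 1 and 0.0901 without male 1). Krt18 had 24.3 and 22.9 RPM in females, against 4.06 and 7.83 RPM in males (0.00706; 0.0586 and 0.0501 without female 1 and 2 and 0.0882 without male 1). Aard had 26.4 and 22.4 RPM in females, against 10.9 and 12.9 RPM in males (0.032; 0.182 and 0.0967 without female 1 and 2 and 0.179 and 0.0954 without male 1 and 2). The part of other cells in the results was not tested, and in bulk samples fewer cells of a type and less RNA per cell cannot be told apart.

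Autosomal genes were called in both directions. Of 10088 autosomal genes tested, 593 (5.88%) were called higher in females and 555 (5.5%) lower, 11.4% in all, at an adjusted p under 0.05 (limma with Benjamini-Hochberg adjustment over all 10856 genes tested). Over all 10856 genes 1297 were called, 11.9%. The median autosomal difference was -0.01. Differences of at least 2-fold were called for 357 genes higher and 230 lower in females, and of at least 4-fold for 76 and 59. Leaving out female library 1 or 2 left 233 or 242 autosomal genes called higher and 229 or 243 lower. Leaving out male library 1 or 2 left 269 or 279 called higher and 205 called lower in each case. In all, 153 autosomal genes stayed called higher and 127 stayed called lower in each of these 4 fits. A group that loses a library is left with 1, whose spread is then taken from the other groups. Of 409 X-linked genes tested, 29.8% were called, 28.6% higher and 1.22% lower, with a median of 0.43, and the 20 X-linked list members are left out of the counts here.

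**Figure D1:**
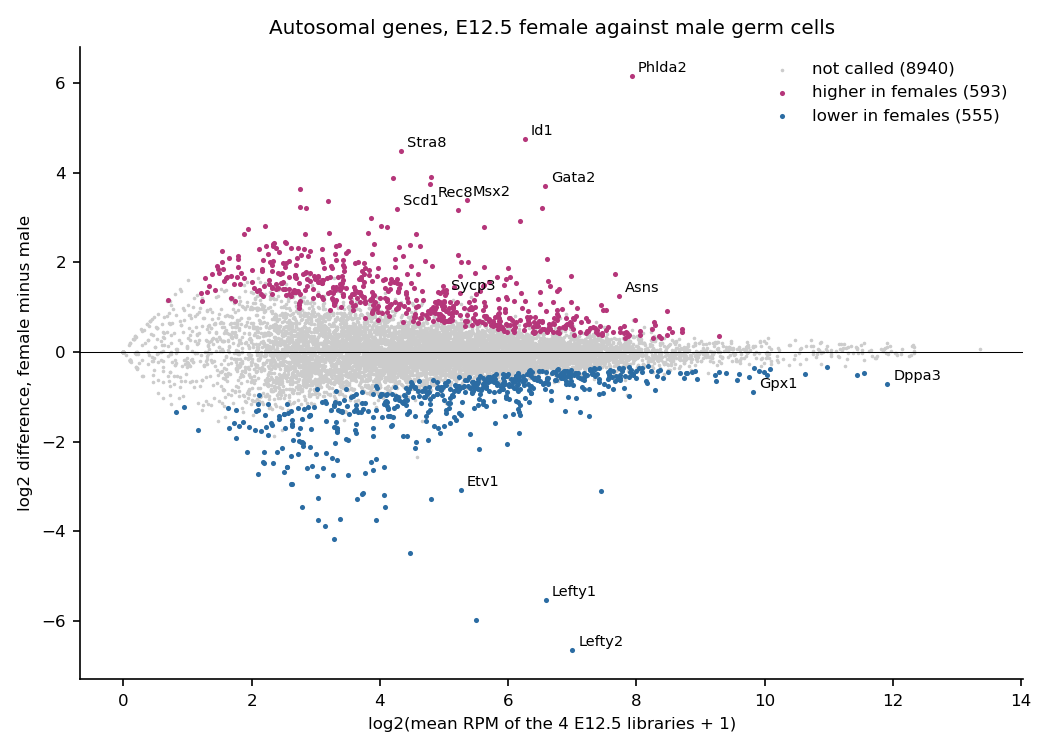
Each point is an autosomal gene, with the log2 of its mean RPM over the 4 E12.5 libraries on the x axis and the log2 difference, female minus male, on the y axis; coloured points are called by limma. Phlda2, Id1 and Stra8 stand at the top, and Lefty2 and Lefty1 at the bottom.

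**Figure D2:**
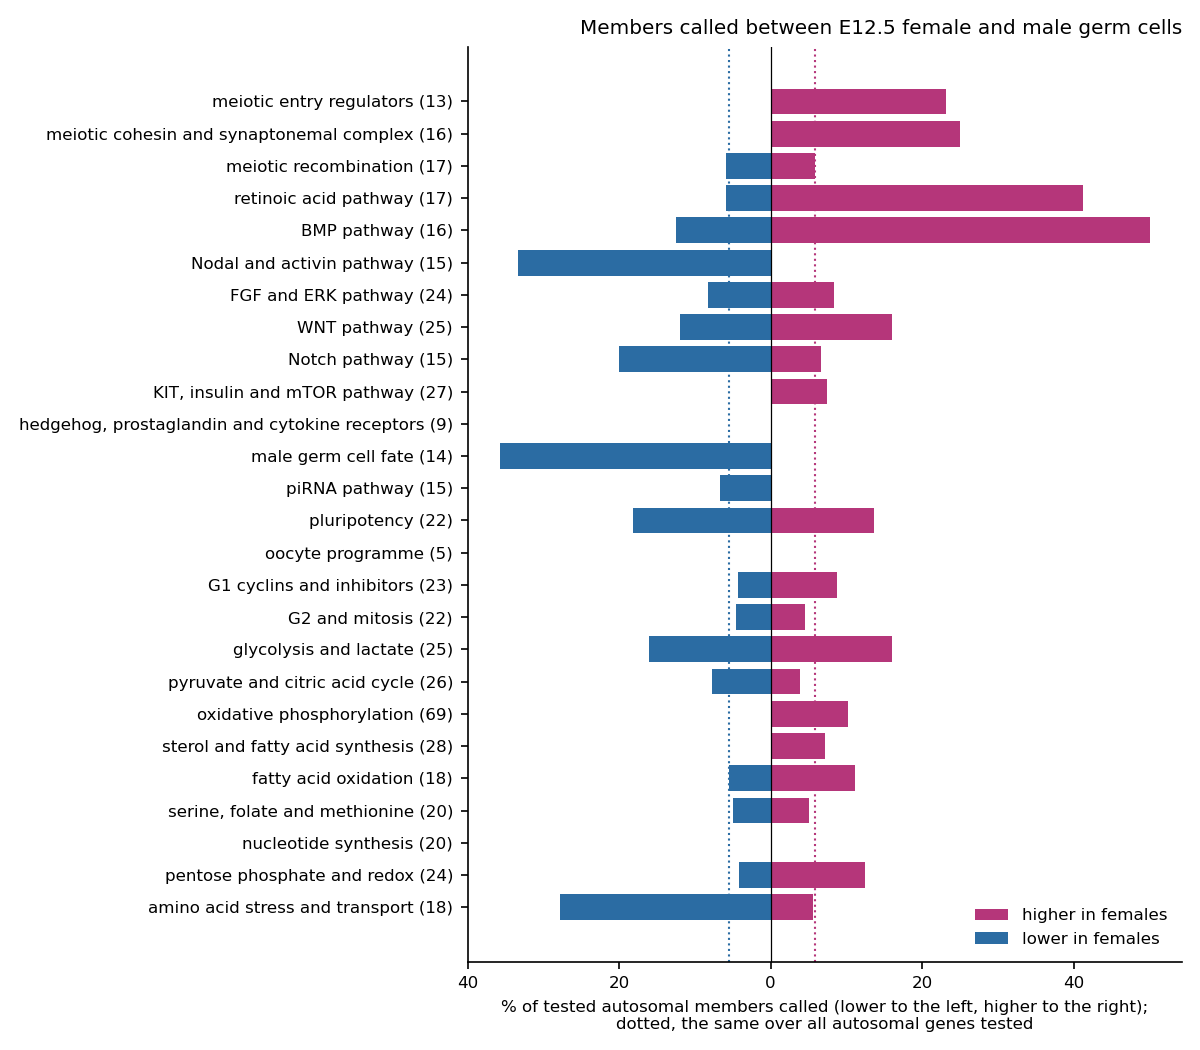
Bars give, for the signalling, meiosis, germ cell fate, cell cycle and metabolism lists and not for the lists of other cells or germ cell identity, the percentage of tested autosomal members (number in brackets) called higher in females (right) or lower (left), and dotted lines the same over all autosomal genes tested, 5.88% and 5.5%. Among the lists drawn, the BMP and retinoic acid bars reach farthest to the right, and those of Nodal and activin and of male germ cell fate farthest to the left.

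Meiotic entry regulators were higher in females at a few genes and not across the list. Stra8, Msx2 and Zglp1 were called higher, none of the 13 tested was called lower, and the median difference was 0.16. The autosomal background was 5.88% called higher and 5.5% lower. Stra8 had 37.0 and 38.0 RPM in females, against 1.25 and 0.301 RPM in males and a mean of 0.486 RPM at E9.5. In estimated reads these were 122 and 151 in females, against 4 and 1 in males. The difference was 4.49 ± 0.38 (SE) on the log2 scale (adjusted p = 6.49e-06), and the groups were far apart. Zglp1 had 62.5 and 58.6 RPM in females, against 16.3 and 12.6 RPM in males and a mean of 3.06 RPM at E9.5 (2.00 ± 0.37, adjusted p = 0.00311). Msx2, a homeobox gene that BMP signals induce, had 71.5 and 75.2 RPM in females, against 4.38 and 8.43 RPM in males (3.38 ± 0.29, adjusted p = 7.37e-06). Unlike Stra8 and Zglp1 it stood at a mean of 60.0 RPM in the E9.5 libraries, whose blood and mesenchymal marker sums are given above. These 3 calls held with any 1 of the 4 libraries left out. Meioc, whose product keeps germ cells in meiotic prophase, had 10.9 and 8.05 RPM in females, against 0.625 and 7.23 RPM in males, and was not called (adjusted p = 0.115). Its partner Ythdc2 had 21.5 and 25.6 RPM in females, against 14.1 and 20.5 RPM in males (adjusted p = 0.369). Max, which with MGA and E2F6 forms part of a repressor complex at germline genes, had 82.5 and 78.5 RPM in females, against 96.3 and 110 RPM in males (adjusted p = 0.0614). Mga, Pcgf6, E2f6 and L3mbtl2 were not called either.

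The meiotic chromosome axis was higher in females at 4 of 16 tested genes of the cohesin and synaptonemal complex list. The autosomal background was 5.88%. None of the 16 was lower, and the median difference was 0.51. REC8, the meiotic kleisin of cohesin, gave the largest: Rec8 had 44.3 and 55.6 RPM in females, against 4.06 and 1.81 RPM in males and a mean of 12.7 RPM at E9.5 (3.75 ± 0.36, adjusted p = 1.95e-05). Its call held with any 1 library left out. Both male values lay below the E9.5 mean and both female values above it. Sycp3, a core of the axis, had 41.8 and 48.0 RPM in females, against 16.3 and 19.6 RPM in males (1.28 ± 0.38, adjusted p = 0.0417). Smc1b, the meiotic SMC subunit of cohesin, had 162 and 176 RPM in females, against 93.5 and 100 RPM in males (0.80 ± 0.17, adjusted p = 0.00816). Syce2, of the central element, had 351 and 358 RPM in females, against 260 and 234 RPM in males (0.52 ± 0.11, adjusted p = 0.00587). The groups did not overlap for these 4, as for all 1148 autosomal genes called. The Sycp3 call was lost without female library 1 or 2 (adjusted p = 0.134 and 0.205) and without male library 1 or 2 (0.207 and 0.128). Sycp3 also missed the threshold with no filter on low genes (0.125), without the mean-variance trend (0.0796) and under a pseudocount of 0.5 (0.0548). The call of Smc1b was lost without female 1 or 2 or male 1 (0.0508, 0.0843 and 0.0762), and that of Syce2 without female 2 or male 2 (0.053 and 0.075). Hormad1 had 108 and 91.7 RPM in females, against 74.1 and 64.6 RPM in males, Sycp1 24.9 and 24.4 RPM against 10.0 and 17.8 RPM, and Stag3 151 and 130 RPM against 109 and 120 RPM. None of these 3 was called (adjusted p = 0.22, 0.158 and 0.289).

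Recombination genes were called at a share near the autosomal background of 11.4%. Of 17 tested, Dmc1 was called higher and Mnd1 lower, with a median of 0.12, and 12 autosomal members were too low to test. Dmc1, the meiotic strand-exchange recombinase, had 25.8 and 19.6 RPM in females, against 7.50 and 11.1 RPM in males (1.21 ± 0.34, adjusted p = 0.0344). Mnd1, a cofactor of DMC1, went the other way, with 40.2 and 41.0 RPM in females, against 57.5 and 63.7 RPM in males (-0.57 ± 0.17, adjusted p = 0.0412). Both calls were lost whichever library was left out: for Dmc1 at adjusted p = 0.204 and 0.0849 without female 1 and 2 and 0.221 and 0.0649 without male 1 and 2, for Mnd1 at 0.16, 0.147, 0.104 and 0.22 in the same order. Spo11, the nuclease that makes the meiotic breaks, had 6.06 and 10.3 RPM in females, against 8.44 and 5.42 RPM in males (0.20 ± 0.53, adjusted p = 0.863), and the groups overlapped.

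**Figure D3:**
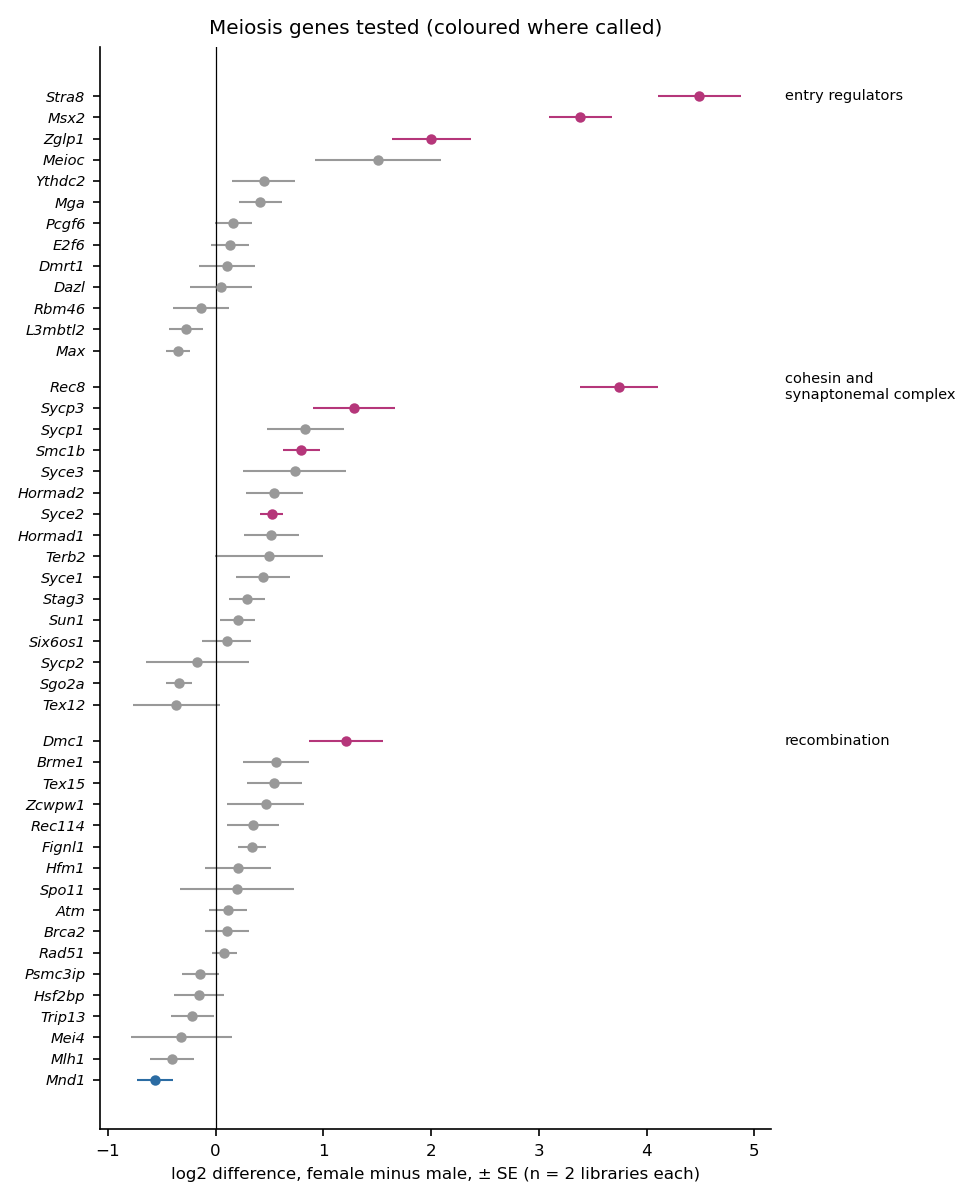
Points give the log2 difference, female minus male (n = 2 libraries each), for every tested autosomal gene of the 3 meiosis lists. Bars give its SE from the limma fit to all 12 libraries. Coloured points are called. Stra8, Rec8, Msx2 and Zglp1 lie at 2.00 or above, while the recombination genes lie on both sides of 0.

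Retinoic acid pathway genes were higher in females at 7 of 17 tested members, with 1 lower and a median of 0.33. The autosomal backgrounds were 5.88% and 5.5%. Stra8 and Rec8 are counted here too, since both are targets of the receptors. Retinoid-binding proteins were among the rest. Crabp2, which delivers retinoic acid to its receptors, had 12.1 and 15.3 RPM in females, against 1.88 and 4.21 RPM in males (1.92 ± 0.41, adjusted p = 0.00817). Crabp1 had 55.8 and 57.3 RPM in females, against 20.9 and 13.5 RPM in males (1.69 ± 0.37, adjusted p = 0.009). Among the receptors, Rarb, itself a target of retinoic acid, had 1.82 and 3.52 RPM in females, against 0 and 0.301 RPM in males (adjusted p = 0.0406). Rxra had 20.3 and 19.1 RPM in females, against 10.0 and 5.12 RPM in males (1.34 ± 0.38, adjusted p = 0.0347). Calls were lost for Crabp2 without female 2 or male 1 (adjusted p = 0.079 and 0.098), for Crabp1 without female 1, female 2 or male 2 (0.0621, 0.0696 and 0.109), and for Rxra without the same 3 (0.154, 0.135 and 0.277). Rarb lost its call without female 1 or 2 (0.0748 and 0.248) and without male 1 or 2 (0.2 and 0.11). Rara and Rarg were not called (adjusted p = 0.284 and 0.983). Of the enzymes, Aldh1a1, which makes retinoic acid, was called lower at 1.21 and 0 RPM in females, against 5.94 and 9.03 RPM in males (-2.49 ± 0.46, adjusted p = 0.00353; 0.052 without female 2). Cyp26b1, which degrades retinoic acid, was too low to test, at 0.606 and 0 RPM in females and 0.313 and 1.20 RPM in males.

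Among the signalling, meiosis and metabolism lists the BMP pathway had the largest share called higher in females, 8 of 16 tested against an autosomal background of 5.88%, with 2 lower and a median of 0.99. Id1, an inhibitor of bHLH factors and a direct SMAD target, had 139 and 154 RPM in females, against 4.06 and 4.82 RPM in males (4.76 ± 0.38, adjusted p = 3.25e-06). Its mean was 59.9 RPM at E9.5. Id2 had 33.0 and 39.2 RPM in females, against 6.88 and 5.42 RPM in males (2.38 ± 0.27, adjusted p = 9.62e-05). Id3 had 297 and 327 RPM in females, against 96.3 and 87.6 RPM in males (1.75 ± 0.22, adjusted p = 0.000191). Gata2, a zinc finger factor listed with the targets, had 175 and 178 RPM in females, against 11.9 and 13.5 RPM in males and a mean of 18.4 RPM at E9.5 (3.70 ± 0.20, adjusted p = 3.72e-08). All 4 calls held with any 1 library left out, and with Msx2 and Zglp1 they make 6 of the 8. Id4 pointed the same way at 19.4 and 30.9 RPM in females, against 8.44 and 12.3 RPM in males, and was not called (adjusted p = 0.072).

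Ligands, receptors and transducers of the pathway had smaller differences, in both directions. Acvr1, a type 1 receptor, had 28.8 and 29.2 RPM in females, against 7.81 and 14.8 RPM in males (1.35 ± 0.38, adjusted p = 0.0345). Bmpr1a, another type 1 receptor, had 87.6 and 114 RPM in females, against 81.9 and 88.2 RPM in males (adjusted p = 0.416). Smad1, a transducer, was lower at 1.82 and 2.01 RPM in females, against 5.94 and 7.83 RPM in males (-1.43 ± 0.38, adjusted p = 0.0258). Its counterpart Smad5 had 41.8 and 35.2 RPM in females, against 38.1 and 39.4 RPM in males (adjusted p = 0.976). Smad6, a feedback inhibitor that the pathway induces, had 41.2 and 36.5 RPM in females, against 25.6 and 19.0 RPM in males (0.79 ± 0.24, adjusted p = 0.0494). The ligand gene Bmp7 had 28.5 and 25.6 RPM in females, against 45.0 and 57.5 RPM in males (-0.89 ± 0.21, adjusted p = 0.0147), while Bmp2 was at 0 in both female libraries, against 0.313 and 0 RPM in males. Without female 1 or 2 or male 1, Acvr1 lost its call (adjusted p = 0.142, 0.154 and 0.272), and without female 1 or 2 or male 2 Bmp7 did (0.0597, 0.109 and 0.149). Smad1 lost it without female 1 or 2 (0.125 and 0.107) or male 1 or 2 (0.077 and 0.167), as did Smad6 (0.228 and 0.135, and 0.0729 and 0.302). Smad6 also missed the threshold under a pseudocount of 0.5 (0.0515) and with library medians aligned (0.0519).

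Nodal and activin pathway genes went the other way. Of 15 tested members 5 were called lower in females, against an autosomal background of 5.5%, and none higher, with a median of -0.13. Nodal, the ligand, had 6.06 and 9.56 RPM in females, against 22.5 and 30.4 RPM in males and a mean of 10.5 RPM at E9.5 (-1.65 ± 0.29, adjusted p = 0.00237). Tdgf1, the co-receptor Cripto, had 5.76 and 1.76 RPM in females, against 28.4 and 18.1 RPM in males (-2.46 ± 0.36, adjusted p = 0.000617). Lefty1 and Lefty2, secreted inhibitors of Nodal and themselves its targets, differed by -5.54 ± 0.22 and -6.66 ± 0.33 (adjusted p = 3.24e-09 and 1.89e-08), with female means of 3.10 and 1.56 RPM, against male means of 187 and 253 RPM. All 5 calls held with any 1 library left out. Receptor and transducer genes were outside the calls: Acvr1b, Acvr2b, Smad2, Smad3, Foxh1 and Skil were not called (adjusted p = 0.916, 0.183, 0.16, 0.76, 0.628 and 0.633). Smad2, for one, had 116 and 129 RPM in females, against 100 and 101 RPM in males. Gdf3, a Nodal-related ligand, had 191 and 183 RPM in females, against 204 and 199 RPM in males (adjusted p = 0.767).

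The Lefty genes lie close together on chromosome 1, and a gene beside them was also lower in females. Lefty2 lies at 180893108 to 180899107 and Lefty1 at 180935022 to 180938401 (GRCm38.p6). Past Lefty1, Tmem63a had 3.03 and 3.27 RPM in females, against 23.8 and 25.6 RPM in males (-2.63 ± 0.31, adjusted p = 0.000109). At the outer edges, Sde2 had 37.9 and 38.2 RPM in females, against 46.0 and 50.9 RPM in males (adjusted p = 0.222), and Ephx1 had 1.82 and 1.01 RPM in females, against 3.75 and 4.52 RPM in males (adjusted p = 0.0961). The Tmem63a call held with any 1 library left out. Tmem63a, Sde2 and Ephx1 were chosen as neighbours after their values were seen, and the other genes by the naming rule.

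**Figure D4:**
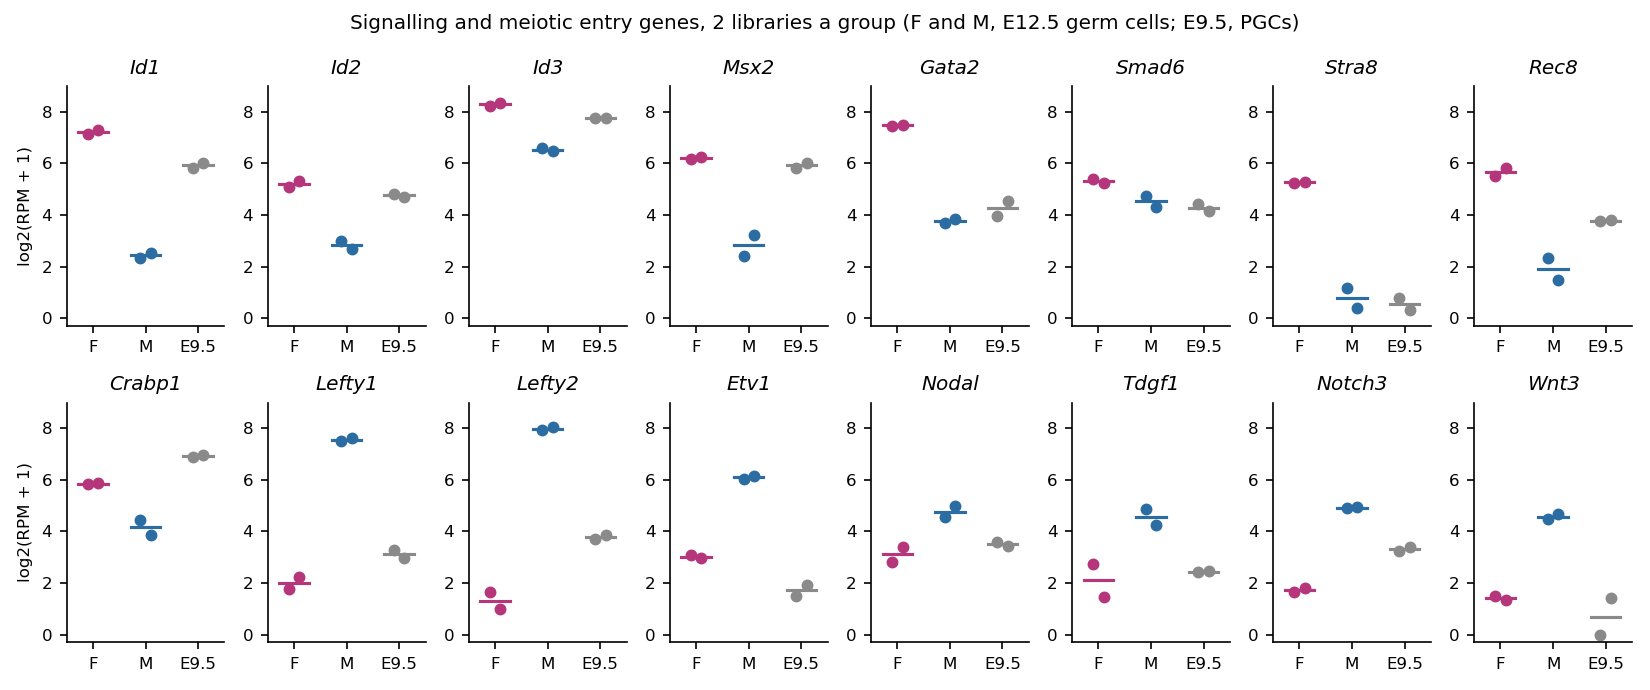
Points are single libraries and bars the mean of 2, as log2(RPM + 1), for E12.5 females (F), E12.5 males (M) and E9.5 PGCs. BMP and retinoic acid genes from Id1 to Crabp1 are higher in F than in M, and Lefty1 to Wnt3 are lower. The 16 genes drawn were picked from those called, so the gap between F and M points adds nothing to the calls.

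The calls among male germ cell fate genes were mostly those of the Nodal pathway. Of 14 tested, 5 were lower in females, against an autosomal background of 5.5%, and none higher, with a median of -0.21. Of the 5, 4 are the Nodal genes above. The fifth was Tdrd5, a Tudor protein of the piRNA pathway, at 49.4 and 38.2 RPM in females, against 97.5 and 102 RPM in males (-1.18 ± 0.26, adjusted p = 0.00819). Its call was lost without female 2, male 1 or male 2 (adjusted p = 0.0969, 0.0566 and 0.0718). Nanos2, an RNA-binding protein that drives the male path, was too low to test, at 0 and 0.251 RPM in females, against 1.88 and 1.81 RPM in males. That is 1 estimated read over both female libraries, against 12 over both male ones, a depth-adjusted female level of 7.47% of the male (95% exact interval 0.175% to 50.5%, which covers counting error only and not the spread between libraries). Dnmt3l, a cofactor of de novo DNA methylation, was at 0 in all 4 libraries. Against an autosomal background of 11.4%, Tdrd5 was also the 1 call among 15 tested piRNA genes, whose median was 0.16. Among them Mael had 199 and 178 RPM in females, against 145 and 154 RPM in males, Piwil2 had 104 and 108 RPM against 88.5 and 100 RPM, and Ddx4 had 447 and 445 RPM against 424 and 429 RPM. None of these 3 was called (adjusted p = 0.597, 0.564 and 0.891). On the female side, genes of the later oocyte programme were mostly too low, and 14 autosomal members were not tested. None of the 5 tested was called, too few genes to set against the autosomal background of 11.4%. Figla, an oocyte transcription factor, had 0 and 2.51 RPM in females, against 0.625 and 0 RPM in males.

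FGF and ERK genes were called in both directions. Of 24 tested, 2 were higher and 2 lower in females, near the autosomal backgrounds of 5.88% and 5.5%. The median was -0.14. The receptor gene Fgfr3 had 33.7 and 31.4 RPM in females, against 6.25 and 6.92 RPM in males (2.14 ± 0.27, adjusted p = 0.00021). Fgfr1 and Fgfr2 were not called (adjusted p = 0.219 and 0.951). Dusp5, a phosphatase of ERK, had 70.6 and 59.6 RPM in females, against 14.1 and 16.9 RPM in males (2.01 ± 0.27, adjusted p = 0.000341). Etv1, an ETS factor, had 7.43 and 6.79 RPM in females, against 65.2 and 69.7 RPM in males and a mean of 2.33 RPM at E9.5 (-3.08 ± 0.29, adjusted p = 1.95e-05). These 3 calls held with any 1 library left out. Dusp4, another ERK phosphatase, had 96.1 and 112 RPM in females, against 186 and 181 RPM in males (-0.82 ± 0.17, adjusted p = 0.00686), and lost its call without female 1, male 1 or male 2 (0.0788, 0.0596 and 0.0509). The related ETS genes Etv4 and Etv5 and the feedback genes Dusp6, Spry1 and Spry4 were not called. Etv5 had 219 and 247 RPM in females, against 283 and 290 RPM in males (adjusted p = 0.0766). Fgf9, the ligand tied to the male path, was at 0 in both female libraries, against 0 and 0.602 RPM in males.

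WNT genes were called in both directions, 4 higher and 3 lower in females of 25 tested, with a median of 0.39. The autosomal backgrounds were 5.88% and 5.5%. Receptors differed within the list. Ror2, a receptor of non-canonical WNT, had 39.7 and 41.7 RPM in females, against 8.75 and 9.63 RPM in males (2.03 ± 0.23, adjusted p = 7.75e-05). Fzd3 had 42.5 and 40.0 RPM in females, against 17.3 and 20.5 RPM in males (1.09 ± 0.23, adjusted p = 0.00672), and Fzd7 76.1 and 67.4 RPM against 37.5 and 43.7 RPM (0.81 ± 0.19, adjusted p = 0.0152). Lgr4, a receptor of R-spondins, was lower at 84.6 and 78.7 RPM in females, against 214 and 233 RPM in males (-1.44 ± 0.19, adjusted p = 0.000316). The ligand gene Wnt3 had 1.82 and 1.51 RPM in females, against 21.3 and 24.4 RPM in males (-3.16 ± 0.47, adjusted p = 0.000683). Sfrp1, a secreted inhibitor, had 27.3 and 19.7 RPM in females, against 51.0 and 52.7 RPM in males (-1.13 ± 0.21, adjusted p = 0.00384; 0.0575 without female 2). Axin2, a general target of canonical WNT, had 11.8 and 12.6 RPM in females, against 5.63 and 4.82 RPM in males (1.09 ± 0.34, adjusted p = 0.0494), while the canonical factors Lef1 and Tcf7 were not called (adjusted p = 0.97 and 0.892). The calls of Ror2, Lgr4 and Wnt3 held with any 1 library left out. Fzd3 lost its call without female 1 or male 1 (0.0591 and 0.065), Fzd7 without female 1 or 2 (0.121 and 0.0591) or male 1 or 2 (0.121 and 0.0514), and Axin2 without female 1 or 2 (0.154 and 0.195) or male 1 or 2 (0.129 and 0.214). Axin2 also missed the threshold under a pseudocount of 0.5 (0.0557) and in the E12.5 libraries alone (0.054).

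The receptor genes Notch1 and Notch3 were called in opposite directions, and Notch2 and Notch4 were not called. The Notch list had 1 call higher and 3 lower in females of 15 tested, with a median of -0.07. The autosomal backgrounds were 5.88% and 5.5%. Notch1 had 19.7 and 17.6 RPM in females, against 7.19 and 5.12 RPM in males (1.47 ± 0.25, adjusted p = 0.00169). Notch3 had 2.12 and 2.51 RPM in females, against 28.8 and 29.5 RPM in males (-3.19 ± 0.30, adjusted p = 1.89e-05). Both calls held with any 1 library left out. Hey1, a target of Notch, had 86.4 and 99.8 RPM in females, against 152 and 138 RPM in males (-0.64 ± 0.14, adjusted p = 0.00864; 0.0946 without female 1 and 0.0877 without male 1). Dll3, a ligand-like inhibitor, had 6.06 and 4.02 RPM in females, against 13.8 RPM in each male library (-1.31 ± 0.37, adjusted p = 0.0353), and lost its call without female 1 or 2 (0.0727 and 0.218) or male 1 or 2 (0.14 and 0.149).

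Genes of KIT, insulin and mTOR signalling were called higher in females at 2 of 27 tested members, near the autosomal background of 5.88%, with none lower and a median of 0.09. Kit, the receptor of stem cell factor, had 263 and 232 RPM in females, against 226 and 224 RPM in males (0.13 ± 0.17, adjusted p = 0.674). Igf2, an imprinted growth factor, had 29.1 and 35.0 RPM in females, against 5.31 and 5.72 RPM in males (2.34 ± 0.38, adjusted p = 0.00125), and its call held with any 1 library left out. Its mean at E9.5 was 175 RPM, in libraries with the blood and mesenchymal marker sums given above. Igf2r, which clears IGF2, had 110 and 101 RPM in females, against 69.4 and 71.4 RPM in males (0.57 ± 0.13, adjusted p = 0.0121), a call lost without female 1, male 1 or male 2 (0.103, 0.0811 and 0.0649). None of 9 tested hedgehog, prostaglandin and cytokine receptor genes was called, against an autosomal background of 11.4%.

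Pluripotency genes, which fetal germ cells still express, were called in both directions, 3 higher and 4 lower in females of 22 tested. The autosomal backgrounds were 5.88% and 5.5%. Pou5f1 had 538 and 492 RPM in females, against 534 and 500 RPM in males (-0.01 ± 0.12, adjusted p = 0.986). Sox2 had 259 and 235 RPM in females, against 170 and 194 RPM in males (0.44 ± 0.11, adjusted p = 0.0178; 0.145 and 0.0533 without female 1 and 2 and 0.167 without male 1). Utf1, a chromatin factor of pluripotent cells, had 708 and 695 RPM in females, against 1003 and 1049 RPM in males (-0.55 ± 0.10, adjusted p = 0.0025). Tfap2c, a factor of PGC specification, had 129 and 152 RPM in females, against 56.9 and 72.6 RPM in males and a mean of 221 RPM at E9.5 (1.11 ± 0.16, adjusted p = 0.00046). The Utf1 and Tfap2c calls held with any 1 library left out.

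Cell cycle genes were called at a share near the autosomal background of 11.4%. Of 23 tested G1 cyclins, inhibitors and partners, 2 were higher and 1 lower in females (median 0.02), and of 22 tested G2 and mitosis genes 1 was higher and 1 lower (median -0.13). Ccnd1, cyclin D1, had 18.2 and 18.9 RPM in females, against 3.13 and 4.82 RPM in males (1.99 ± 0.46, adjusted p = 0.0124). Cdkn1c, a CDK inhibitor, had 30.0 and 26.7 RPM in females, against 9.69 and 16.3 RPM in males (1.11 ± 0.26, adjusted p = 0.0137). E2f4, a repressor E2F, had 35.8 and 37.2 RPM in females, against 66.3 and 59.3 RPM in males (-0.76 ± 0.16, adjusted p = 0.00653). Aurkb, a mitotic kinase, had 68.2 and 80.2 RPM in females, against 113 and 122 RPM in males (-0.66 ± 0.12, adjusted p = 0.0025), and its call held with any 1 library left out. Calls were lost for Ccnd1 without female 1 or 2 or male 1 (0.0734, 0.082 and 0.105), for Cdkn1c without the same 3 (0.101, 0.0613 and 0.142), and for E2f4 without female 1 or male 1 (0.0538 and 0.0695). Cdkn1b, the inhibitor p27, had 1.82 and 2.26 RPM in females, against 3.44 and 2.11 RPM in males (adjusted p = 0.778). The mitotic genes Ccnb1 and Cdk1 were not called (adjusted p = 0.387 and 0.318). Rb1, whose product blocks entry into S phase, had 66.1 and 51.5 RPM in females, against 36.3 and 41.8 RPM in males (adjusted p = 0.0532).

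Metabolism lists held calls in both directions, at times for related enzymes. Glycolysis had 4 genes higher and 4 lower in females of 25 tested, against autosomal backgrounds of 5.88% and 5.5%, with a median of -0.07. The lactate dehydrogenase subunits moved in opposite directions: Ldha had 75.8 and 66.5 RPM in females, against 23.4 and 26.5 RPM in males (1.47 ± 0.24, adjusted p = 0.00134), and Ldhb 28.2 and 40.9 RPM against 76.6 and 69.8 RPM (-1.08 ± 0.23, adjusted p = 0.00795). Ldha was 630 RPM at E9.5 on average. Aldoc, an aldolase, had 12.4 and 12.8 RPM in females, against 1.25 and 3.61 RPM in males (2.08 ± 0.40, adjusted p = 0.0041). Slc2a3, a glucose transporter, had 109 and 141 RPM in females, against 68.1 and 62.9 RPM in males (0.91 ± 0.21, adjusted p = 0.0115). Eno1, enolase, had 386 and 399 RPM in females, against 589 and 599 RPM in males (-0.60 ± 0.14, adjusted p = 0.0114), and Gapdh 2297 and 2304 RPM against 3261 and 3275 RPM (-0.51 ± 0.15, adjusted p = 0.0412). The Ldha call held with any 1 library left out. Aldoc lost its call without male 1 (0.0573), Ldhb without female 1 or male 1 (0.103 and 0.0752), and Slc2a3 without female 2, male 1 or male 2 (0.134, 0.0623 and 0.0969). Eno1 lost it without female 1 or 2 (0.0868 and 0.0667) or male 1 or 2 (0.0747 and 0.0847), and Gapdh likewise (0.17 and 0.171, and 0.169 and 0.181).

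Oxidative phosphorylation genes were called in 1 direction only. Of 69 tested autosomal genes 7 were called higher in females and none lower, against autosomal backgrounds of 5.88% and 5.5%. The median was 0.09, and all 7 differences were under 1 on the log2 scale. Cox6c, of complex IV, had 360 and 394 RPM in females, against 256 and 240 RPM in males (0.60 ± 0.10, adjusted p = 0.00149), and was the 1 call of the 7 that held with any 1 library left out. Uqcrb, of complex III, had 431 RPM in each female library, against 340 and 256 RPM in males (0.55 ± 0.13, adjusted p = 0.013; 0.0823 and 0.0831 without female 1 and 2 and 0.174 without male 2). Ndufa2, of complex I, had 319 and 297 RPM in females, against 230 and 217 RPM in males (0.46 ± 0.10, adjusted p = 0.00805; 0.0824 without female 1 and 0.0804 without male 2). In the citric acid cycle 1 of 26 tested genes was higher and 2 lower, near the autosomal background of 11.4% for both directions together. Idh2, the mitochondrial isocitrate dehydrogenase that uses NADP, had 136 and 147 RPM in females, against 73.8 RPM in each male library (0.93 ± 0.15, adjusted p = 0.00107), and its call held with any 1 library left out. Idh3a, of the enzyme that uses NAD, had 60.0 and 55.3 RPM in females, against 79.1 and 89.4 RPM in males (-0.54 ± 0.13, adjusted p = 0.0142; 0.0521 and 0.111 without female 1 and 2 and 0.132 without male 2).

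Among the lipid genes the desaturase stood out. Scd1, which makes monounsaturated fatty acids, had 33.3 and 33.6 RPM in females, against 1.88 and 3.99 RPM in males (3.19 ± 0.37, adjusted p = 0.000102), and its call held with any 1 library left out. Srebf2, the master regulator of sterol synthesis, had 136 and 132 RPM in females, against 85.3 and 76.8 RPM in males (0.71 ± 0.15, adjusted p = 0.00738; 0.0608 without female 1 and 0.0774 without male 2). These were the calls of the sterol and fatty acid synthesis list, 2 of 28 tested with none lower and a median of 0.29. That share is near the autosomal background of 5.88% called higher. Fatty acid oxidation had 2 genes higher and 1 lower of 18 tested, against autosomal backgrounds of 5.88% and 5.5%. Cpt1a, which brings fatty acids into mitochondria, had 21.5 and 18.6 RPM in females, against 57.5 and 51.5 RPM in males (-1.40 ± 0.31, adjusted p = 0.0103), a call lost without female 1 or 2 (0.0536 and 0.0882) or male 1 or 2 (0.0863 and 0.0594).

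Asparagine synthetase was higher in females, and some amino acid carriers were lower. Of 18 tested members of the list, 5 were called lower in females and 1 higher, against autosomal backgrounds of 5.5% and 5.88%, with a median of -0.09. Asns, asparagine synthetase, had 290 and 306 RPM in females, against 126 and 124 RPM in males (1.25 ± 0.10, adjusted p = 5.48e-06). Slc7a7, a carrier of cationic amino acids, had 10.9 and 15.6 RPM in females, against 46.6 and 42.8 RPM in males (-1.70 ± 0.29, adjusted p = 0.00202). Slc38a2, a carrier of neutral amino acids, had 39.7 and 33.7 RPM in females, against 93.8 and 100 RPM in males (-1.38 ± 0.18, adjusted p = 0.000252). These 3 calls held with any 1 library left out. The glutamine carrier Slc1a5 had 6.37 and 10.3 RPM in females, against 14.7 and 17.2 RPM in males (-0.89 ± 0.24, adjusted p = 0.0276; 0.227 without female 1, 0.079 without male 1 and 0.169 without male 2). Atf4, a factor that induces Asns under amino acid shortage, had 9.40 and 14.3 RPM in females, against 12.8 and 16.9 RPM in males (adjusted p = 0.531). In serine and folate metabolism 1 of 20 tested genes was higher and 1 lower, near the autosomal backgrounds of 5.88% and 5.5%. Psat1, of serine synthesis, had 261 and 244 RPM in females, against 170 and 178 RPM in males (0.54 ± 0.10, adjusted p = 0.00303), and kept its call with any 1 library left out. Shmt2, which passes serine carbon to folate in mitochondria, had 29.1 and 28.9 RPM in females, against 68.1 and 64.4 RPM in males (-1.16 ± 0.26, adjusted p = 0.0102; 0.066 and 0.0695 without female 1 and 2, 0.0805 and 0.064 without male 1 and 2). None of 20 tested genes of nucleotide synthesis was called, against an autosomal background of 11.4%.

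Among the genes of peroxide-removing enzymes, Prdx6 was called higher and Gpx1 lower in females. Prdx1, Prdx2, Prdx3, Prdx5, Gpx4 and Cat were not called. Prdx6, a peroxiredoxin, had 167 and 156 RPM in females, against 102 and 89.6 RPM in males (0.75 ± 0.11, adjusted p = 0.000451). Gpx1, a glutathione peroxidase, had 592 and 668 RPM in females, against 1186 and 1151 RPM in males (-0.89 ± 0.13, adjusted p = 0.000479). Both calls held with any 1 library left out. Tkt, transketolase of the pentose phosphate pathway, had 200 and 213 RPM in females, against 129 and 146 RPM in males (0.59 ± 0.12, adjusted p = 0.00479; 0.0551 without female 2 and 0.0643 without male 1). The pentose phosphate and redox list held 3 calls higher and 1 lower of 24 tested, against autosomal backgrounds of 5.88% and 5.5%.

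**Figure D5:**
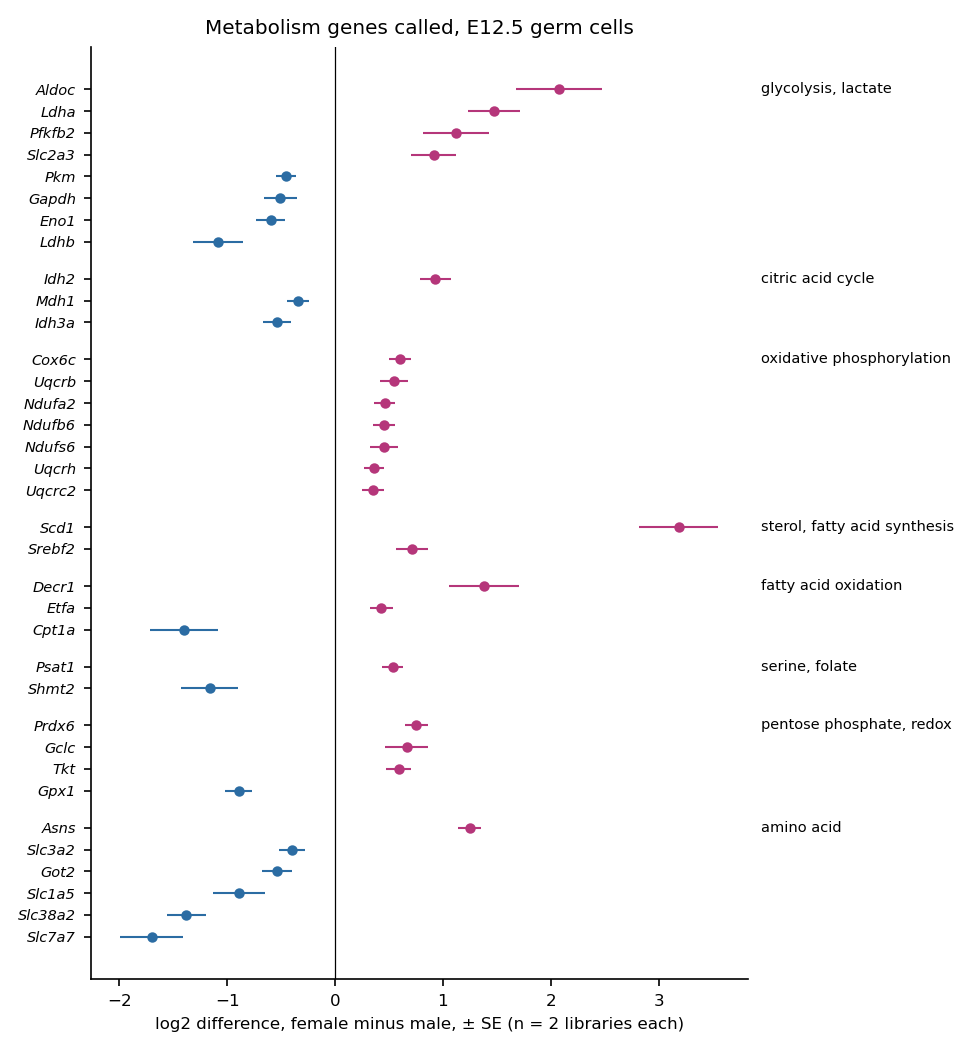
Points give the log2 difference, female minus male (n = 2 libraries each), for each called metabolism gene. Bars give its SE from the limma fit to all 12 libraries. Scd1 lies farthest to the right at 3.19 and Slc7a7 farthest to the left at -1.70; glycolysis has 4 genes on each side of 0, and the 7 oxidative phosphorylation genes all lie to the right.

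Outside the lists, imprinted, growth factor and adhesion genes were among those with the largest called differences and a group mean of at least 50 RPM. Predicted genes were left out of this ranking. Phlda2, an imprinted gene that restrains placental growth, differed by 6.17 ± 0.14 (adjusted p = 2.2e-12). Nr6a1, a nuclear receptor that represses Pou5f1 in differentiating cells, had 155 and 175 RPM in females, against 14.4 and 19.6 RPM in males (3.22 ± 0.19, adjusted p = 1.06e-07). Mdk, the growth factor midkine, had 140 and 116 RPM in females, against 17.5 and 14.8 RPM in males and a mean of 453 RPM at E9.5 (2.91 ± 0.16, adjusted p = 3.72e-08). Dsp, the desmosomal linker desmoplakin, had 78.2 and 92.3 RPM in females, against 10.6 and 12.3 RPM in males (2.79 ± 0.26, adjusted p = 1.32e-05). Calcoco2, an autophagy receptor, had 52.4 and 49.4 RPM in females, against 1.56 and 3.61 RPM in males (3.92 ± 0.25, adjusted p = 2.52e-07). In the other direction, Lrrfip1 had 25.2 and 22.1 RPM in females, against 95.0 and 108 RPM in males (-2.06 ± 0.16, adjusted p = 3.11e-06). Fxyd6, a regulator of the sodium pump, had 30.6 and 30.7 RPM in females, against 108 and 113 RPM in males (-1.82 ± 0.14, adjusted p = 2.73e-06). Mest, an imprinted gene, had 32.1 and 22.1 RPM in females, against 78.8 and 84.9 RPM in males and a mean of 447 RPM at E9.5 (-1.58 ± 0.20, adjusted p = 0.00021). The calls of the genes above in this paragraph held with any 1 library left out. Lhx1 (-2.17 ± 0.46), Igsf3 (-1.58 ± 0.33) and M1ap (2.17 ± 0.45), also among the largest differences, lost theirs without some single libraries.

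In RefSeq, 15 of the 103 genes that the naming rule gave overlap another protein-coding gene, among them Sycp3, Smc1b, Wnt3, Hey1, Ccnd1, Ndufa2, Shmt2, Slc7a7, Insl3, Calcoco2, Mdk, Mest and Dnmt3l. The sources used here do not say whether strand entered the counting, so reads of such neighbours cannot be told apart.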

How the data were processed

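The authors deposited RPM values, which by the column sums are reads scaled to the total of reads in genes, for 26218 gene rows and 92 spike-in rows. The submitters' processing notes list the build mm10 and, without their roles, Cufflinks 2.2.0, TopHat 1.4.1 and cutadapt 1.3. All per-sample columns were used. Positions, names and chromosomes came from RefSeq on GRCm38.p6, the same build, which matched 24619 rows and 10497 of the 10856 genes tested. The RPM of 1 read was estimated from the steps between low values. The share of values of 20 reads or fewer that came out whole within 0.1 read was 85% to 91.2%, so whole reads were not recovered and no count test was run across genes. Rounded estimated reads are given for Stra8 and Nanos2 alone, with a counting interval for Nanos2. Over all 12 libraries this gave 2219175 to 5817990 reads.

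Genes with at least 5 RPM in at least 2 of the 12 libraries entered a limma 3.58.1 fit (R 4.3.3) on log2(RPM + 1), a pseudocount of 1, with a mean for each of the 6 groups and a mean-variance trend (6 residual and 8.02 prior degrees of freedom). A fold on this scale understates the change of low genes. P-values had Benjamini-Hochberg adjustment over all genes tested and were called under 0.05. The fit was tested on simulated data. The contrast of E12.5 female minus male is reported with its SE, and group values are single libraries or means of 2.

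The samples, the 35 lists (759 entries, 723 genes, of which 719 had a row, 570 were tested and 552 were tested and autosomal) and the rule for naming genes were chosen with earlier results of these data known. The rule named up to 3 called autosomal members per list and direction. It also named the 12 largest called autosomal differences in each direction with a group mean of at least 50 RPM, predicted genes left out. A set of germ cell fate genes was given whatever their call. Not all 103 are described, some are not reported here, and further list members are given to show a pathway's parts. Alternatives were other pseudocounts, other filters, other scalings, the E12.5 libraries alone, no trend, a replicate block, and each E12.5 library left out. Figures were drawn with matplotlib 3.10.9.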

Additional observations from a re-analysis of the deposited data

Results flagged for a closer look

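ERCC spike-in RNA, which no comparison uses, took a larger part of the E12.5 libraries than of the others. On the RPM scale the spike-in rows summed to 12107 and 14003 RPM in the female libraries (mean 13055) and to 14411 and 16494 RPM in the male libraries (mean 15452). In the other 8 libraries the sum lay between 0 and 1372 RPM, the E9.5 libraries with the same labelled RNA input having 1372 and 628 RPM. No group held the 4 libraries needed to test for an outlying sample.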

How the results depend on the processing

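Every named call kept its direction under each alternative run. Of the 95 named genes called, 47 kept the call under all alternatives, and 48 lost it when some single library was left out. Leaving out 1 E12.5 library at a time gave 538 to 567 genes called in all, against 1297 with all 4, with 233 to 279 autosomal genes higher and 205 to 243 lower, against 593 and 555. Such a fit has 1 library in a group, assumed to vary like the others, which widens the standard error by construction. All other alternatives kept the counts within 1.5 times, from 1009 genes called without the mean-variance trend to 1351 under a pseudocount of 5 and 1417 with the replicate block. Testing all genes above 0 in any library, with no other filter, gave 1070 and cost 20 of the 95 named calls, and dropping the trend cost 15. Among the genes described, adjusted p was 0.0516 to 0.153 without the filter for Sycp3, Dmc1, Mnd1, Smad1, Smad6, Acvr1, Rarb, Rxra, Crabp1, Axin2, Dll3, Ccnd1, Slc2a3, Eno1, Gapdh, Uqcrb, Cpt1a, Slc1a5 and Aard, which then lost the call. Without the trend Sycp3, Syce2, Mnd1, Rarb, Acvr1, Sox2, Slc2a3, Eno1, Gapdh, Uqcrb, Ndufa2 and Aard lost it, at 0.0513 to 0.151. In the E12.5 libraries alone Rxra, Smad6, Axin2, Cdkn1c and Slc1a5 lost it (0.054 to 0.117). Under a pseudocount of 5 Sox9, Rarb and Aard did (0.162, 0.0618 and 0.052). Rescaling to autosomal genes gave 626 higher and 515 lower. With the replicate number as a block no named call was lost. The numbers are names in the labels, and the deviations of same-numbered female and male libraries correlated at 0.0233, so the block's 1417 calls were not taken as a paired result. Depth limits genes of a few RPM, such as Nanos2, and the small number of libraries limits the smaller differences.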
